A study of Homo sapiens with 9 samples.

Results

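The 3 HepG2 libraries numbered replicate 2 were set against the 6 numbered replicates 1 and 3, out of 9 libraries in all. They were chosen by the number in the sample name alone, so that each of the 3 guide groups gave 1 library of replicate 2 and 2 of the others, and the guide group was kept as a block. HepG2 is a human liver cancer line that makes many hepatocyte proteins. All cells carried lentiCRISPRv2, a lentiviral vector for Cas9 and 1 guide RNA, and were selected with puromycin. The sgCtrl cells had a guide to AAVS1, a locus cut as a control, while sgKeap1-1 and sgKeap1-2 cells had either of 2 guides to KEAP1, whose protein marks the transcription factor NRF2 for degradation. No library came from siRNA-treated cells, and RNA was taken 48 h after seeding. The sources used here do not say what libraries of the same number shared (a culture, a day, an extraction or a run). Their names share a leading code that differs between the numbers and that no source explains, so these cannot be told apart, and p-values measure only the spread between these libraries.

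A cell line in culture can shift its RNA between harvests. Cells that grow dense or idle turn down E2F target genes, which encode the machinery of DNA synthesis, and genes of mitosis. Low oxygen stabilises hypoxia-inducible factors, which raise transporters, angiogenic signals and glycolytic enzymes. Serum factors and stretch act within minutes to hours through immediate early genes and the coactivator YAP, and fasting signals in hepatocytes raise genes of glucose output. These are general facts of biology, and which of them applied to the cultures was not tested.

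The libraries held 3051755 to 4793757 counted reads (median 3809616), and 11064 features were tested. KEAP1, the targeted gene, had 89.2, 62.5 and 85.6 normalized CPM (counts scaled to the size of the library) in the replicate 2 libraries of sgCtrl, sgKeap1-1 and sgKeap1-2, against 53.4 to 85.3 (median 69.0) in the other 6. It was not called as different between the replicates (log2 fold change 0.16, standard error 0.12, adjusted p = 0.433, edgeR), and reads from the end of a transcript do not show an edit. All 17 hepatocyte markers were present, with ALB (albumin) between 3493 and 16328 CPM. None of 5 endothelial markers had a feature. Of 8 fibroblast markers, COL1A1 and PDGFRB had one, with 1 to 55 counts a library, and the summed level of the tested one, PDGFRB, was 9.87 to 13.4 CPM in replicate 2 against 4.36 to 7.42 elsewhere (adjusted p = 0.0202, edgeR). That call was lost without sgKeap1-1 replicate 1 or 2 or sgKeap1-2 replicate 2. Of 6 leukocyte markers 4 had a feature, and their sum was 1544 to 2547 CPM in replicate 2 against 689 to 1094 elsewhere. Nearly all of that sum was LYZ (lysozyme), which rose (log2 fold change 1.03, standard error 0.11, adjusted p = 2.71e-05, edgeR), while CD14 and CD68 stayed at 8 to 31 counts and PTPRC and CD3E had no feature. The part of other cells in the results was not tested. 1 library, sgKeap1-2 replicate 3, stood apart from the rest, and the counts of calls in the lists are given with and without it.

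Replicate 2 differed from the other replicates at 753 features (6.81% of those tested) by the quasi-likelihood test of edgeR, at a Benjamini-Hochberg adjusted p under 0.05. Of these, 442 were higher (3.99%) and 311 lower (2.81%). The differences were mostly modest, with a median of 0.64 on the log2 scale for the increases and -0.55 for the decreases, yet 77 increases and 13 decreases passed a doubling or halving (log2 of 1). They ran the same way in every guide group for 750 of the 753. Of all features tested, 428 (3.87%) were called higher with replicate 2 at the top of all 3 guide groups, and 292 (2.64%) were called lower with it at the bottom. With library size as the only scaling, which moved the median of all features from -0.01 to -0.05, the split turned to 326 higher and 470 lower, so the balance of directions depends on the scaling. The number of calls also depended on single libraries. Without sgKeap1-1 replicate 2 it was 68, and without sgKeap1-2 replicate 2 it was 217. It was 453 without sgCtrl replicate 2, 446 without sgCtrl replicate 3, 338 without sgKeap1-1 replicate 1 and 494 without sgKeap1-1 replicate 3. It rose to 1147 without sgKeap1-2 replicate 3 and to 1494 without sgKeap1-2 replicate 1. Of the 753 features, 740 were also called without sgKeap1-2 replicate 3.

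Replicates 1 and 3, which were set against replicate 2 together, could also be compared with each other. Replicate 3 differed from replicate 1 at 0 of 11064 features by edgeR's quasi-likelihood test (0%), by limma-voom and with DESeq2's size factors, although 787 had an unadjusted p under 0.05. It differed at 1 feature without sgKeap1-2 replicate 3. By the same test replicate 2 differed from replicate 1 at 282 features (2.55%), of which 202 were higher (1.83%) and 80 lower (0.723%), and from replicate 3 at 995 (8.99%), of which 503 were higher (4.55%) and 492 lower (4.45%). The first count was 78 without sgCtrl replicate 1, 60 and 58 without sgKeap1-1 replicates 1 and 2, and 432, 134 and 825 without sgKeap1-2 replicates 1, 2 and 3. The second was 151 without sgKeap1-1 replicate 2 and 344 without sgKeap1-2 replicate 2. Replicate 2 serves in both of these comparisons, so they are not independent. Of the features called against both others together, 162 increases and 70 decreases were also called against each one.

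**Figure D1:**
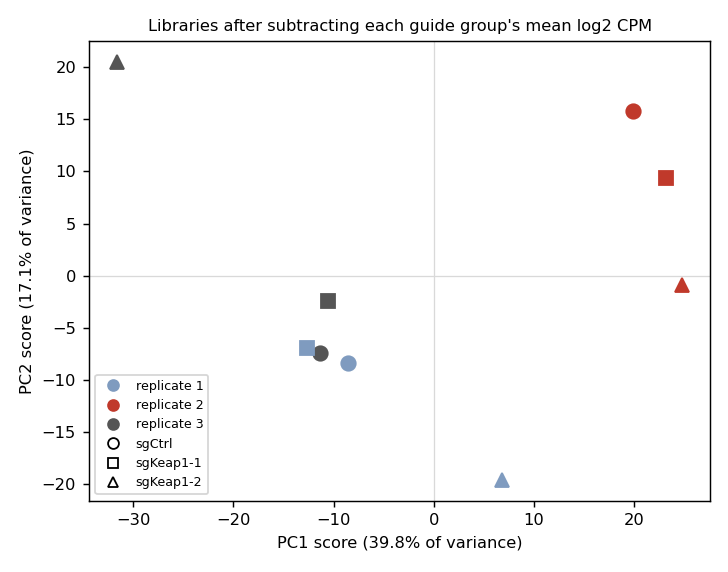
Scores of the 9 libraries on the first 2 principal components (PC1 and PC2, in score units) of log2 CPM after the mean of each guide group was subtracted. Colour marks the replicate number and shape the guide group. The 3 replicate 2 libraries lie at 19.9 to 24.8 on PC1, right of all others, and sgKeap1-2 replicate 3 lies alone at -31.6.

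After the guide groups' means were removed, PC1 held 39.8% of the variance, and the plot of scores shows replicate 2 at one end of it. The 3 replicate 2 libraries scored 19.9, 23.2 and 24.8, and the others scored from -31.6 (sgKeap1-2 replicate 3) to 6.81 (sgKeap1-2 replicate 1). Without sgKeap1-2 replicate 3, PC1 held 39.7%, with replicate 2 at 12.3 to 25.8 and the others at -14.3 to -10.9. There sgKeap1-2 replicates 1 and 2 mirror each other (-12.3 and 12.3) because the mean of the pair was subtracted. Their places on opposite sides of 0 were thus fixed and show nothing. Across features, the deviations of same-numbered libraries had a mean correlation of 0.41 for replicate 2 (0.34 to 0.52 over 3 pairs), 0.19 for replicate 3 and 0.08 for replicate 1. These describe shared deviation only, since features are not independent replicates and subtracting a mean pushes libraries of a group apart.

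Among called genes that averaged at least 10 CPM and had replicate 2 highest in all 3 guide groups, TNS1 rose most. It encodes tensin 1, a protein that ties integrins to the actin cytoskeleton. TNS1 had 35.4, 41.6 and 37.3 CPM in the replicate 2 libraries of sgCtrl, sgKeap1-1 and sgKeap1-2, and 3.39 to 5.26 CPM (median 4.75) in the other 6. The 2 sets did not overlap, and the rise was nearly equal with all guides (log2 fold change 3.04, standard error 0.18, adjusted p = 6.74e-09, edgeR). No other feature tested had a smaller p in this comparison. The secreted factor IGFBP3, which binds insulin-like growth factors, had 49.3, 42.3 and 20.2 CPM in replicate 2 against 0.558 to 9.73 (median 5.88), again with no overlap (log2 fold change 2.81, standard error 0.50, adjusted p = 0.022, edgeR). The chemokine CCL20 had 253, 371 and 280 CPM against 14.3 to 89.9 (median 61.6), with the lowest value in sgKeap1-2 replicate 3 (log2 fold change 2.34, standard error 0.44, adjusted p = 0.0385, edgeR). IGFBP3 and CCL20 lost their call without sgKeap1-1 replicate 1 or 2. IGFBP3 lost it without sgCtrl replicate 1 as well, and CCL20 without any library but sgKeap1-2 replicates 1 and 3. CCL20 lost its call also with the replicate number as a block of 3 levels. TNS1 kept it under each alternative tried. Across the features tested, 536 (4.84%) had all 3 replicate 2 libraries above the other 6, and 442 (3.99%) had them all below.

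In the main test, the genes of fasting and gluconeogenesis had the largest median change of the lists with 5 or more members tested, though only 6 of 11 members could be tested. Of these, 4 rose (background 3.99%) and none fell, and the median log2 fold change was 0.96, beside -0.01 over all features. Under the alternatives this median ran from 0.53 to 1.07 and that of the hypoxia list from 0.68 to 1.01, so the first place did not hold under each. IGFBP1, a secreted protein that insulin represses in liver cells, had 1551, 1920 and 1251 CPM in replicate 2 against 312 to 577 (median 502), with no overlap (log2 fold change 1.71, standard error 0.15, adjusted p = 8.53e-05, edgeR). PCK1 makes phosphoenolpyruvate in the first committed step of gluconeogenesis. It had 86.1, 20.3 and 2.93 CPM against 0.727 to 22.3 (median 4.63), so levels overlapped between guides (log2 fold change 1.98, standard error 0.22, adjusted p = 1.83e-05, edgeR). G6PC1, the 1 of 5 glucose-responsive genes that rose, encodes the phosphatase that frees glucose for export. Its levels were 92.6, 9.59 and 1.71 CPM in replicate 2 and 0 to 12.7 (median 2.47) elsewhere, with sgCtrl replicate 2 far above the rest (log2 fold change 2.80, standard error 0.32, adjusted p = 7.84e-05, edgeR). KLF15 and PPARGC1A, regulators of that pathway, also rose, by 1.30 and 0.62 on the log2 scale. PPARGC1A was not called in 14 of the 22 alternatives, library size only and DESeq2 among them. The count of 4 fell to 2 without sgCtrl, sgKeap1-1 or sgKeap1-2 replicate 2, or sgKeap1-1 replicate 1, and stayed at 4 without sgKeap1-2 replicate 3.

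Genes of the hypoxia response rose in replicate 2 in greater number. Of 24 members tested, 16 rose (66.7%, beside 3.99% of all features) and none fell. The median difference was 0.82 (log2), and 14 of the 24 had all 3 replicate 2 libraries above the other 6, beside 4.84% of all features. CA9, the carbonic anhydrase at the surface of hypoxic cells, had 54.8, 33.1 and 22.2 CPM against 4.12 to 20.2 (median 6.34), where the 20.2 was in sgKeap1-1 replicate 3 (log2 fold change 2.22, standard error 0.44, adjusted p = 0.0261, edgeR). BHLHE40, a repressor induced by low oxygen, had 37.4, 45.7 and 23.2 CPM against 4.46 to 13.3 (median 5.42), with no overlap (log2 fold change 2.26, standard error 0.32, adjusted p = 0.00212, edgeR). VEGFA, the main angiogenic factor, had 93.6, 68.8 and 45.1 CPM against 24.8 to 38.9 (median 31.0; log2 fold change 1.10, standard error 0.15, adjusted p = 0.00023, edgeR). Its replicate 2 levels were apart and highest in sgCtrl, as for CA9. BNIP3L, a mitophagy receptor, and P4HA1, a collagen prolyl hydroxylase, rose by 0.94 and 0.64. INSIG2, which retains the SREBP complex in the endoplasmic reticulum, rose to 117, 129 and 87.3 CPM from 25.9 to 63.4 elsewhere (adjusted p = 0.000431, edgeR). The median over the list was 1.08 within sgCtrl, 0.86 within sgKeap1-1 and 0.58 within sgKeap1-2, and no member was called for a difference between guides, a test with 1 replicate 2 library a guide that does not show the guides to be alike. Glycolytic enzymes moved less: 3 of 16 (18.8%) rose (PGK1 by 0.64, HK2 by 0.94 and LDHA by 0.36), none fell, and the median was 0.24. Within sgKeap1-2 it was replicate 3 that stood highest for the glycolysis list. Its median difference from the group's other libraries was 0.29, beside 0.09 for replicate 2. Without sgKeap1-2 replicate 3 the hypoxia count was 18 and the glycolysis count 8. Without sgKeap1-1 replicate 2 they were 6 and 0, the hypoxia count was 10 without sgCtrl replicate 2, and the glycolysis count was 6 without sgKeap1-2 replicate 1. CA9 lost its call without sgCtrl replicate 1, sgKeap1-1 replicate 1 or sgKeap1-2 replicate 2 or 3, and BHLHE40 without sgKeap1-1 replicate 2.

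Immediate early genes, which cells induce within minutes of growth factor or stress signals, rose at 11 of 20 members tested (55.0%, beside 3.99% of all features), fell at none, and had a median of 0.80. DUSP1, a phosphatase that turns off MAP kinases, had 28.6, 47.1 and 32.2 CPM against 7.27 to 10.5 (median 8.69), with no overlap (log2 fold change 2.02, standard error 0.17, adjusted p = 9.25e-07, edgeR). Its relative DUSP5, which acts on ERK in the nucleus, had 6.12, 52.7 and 70.2 CPM against 1.59 to 18.8 (median 13.2), the sgCtrl libraries being low throughout (log2 fold change 1.95, standard error 0.18, adjusted p = 2.45e-06, edgeR). FOS, a subunit of the AP-1 factor, was scarce, with 4.76, 11.1 and 5.85 CPM against 0.242 to 1.71 (median 0.952; log2 fold change 2.92, standard error 0.40, adjusted p = 0.000245, edgeR), and the sets were apart. KLF6 rose by 0.78. The count was 14 without sgKeap1-2 replicate 3 and 6 without sgKeap1-1 replicate 2.

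Targets of YAP and its TEAD partners, which respond to cell shape and density, rose at 7 of 19 members (36.8%, beside 3.99% of all features) and fell at none, with a median of 0.49. ANKRD1, a muscle-type ankyrin repeat protein, had 254, 436 and 690 CPM against 78.7 to 229 (median 158), with no overlap (log2 fold change 1.52, standard error 0.11, adjusted p = 4.08e-07, edgeR). The matricellular proteins CCN1 and CCN2 rose as well. CCN1 had 50.7, 59.9 and 55.4 CPM against 5.09 to 25.7 (median 16.4; log2 fold change 1.95, standard error 0.27, adjusted p = 0.0025, edgeR). CCN2 had 362, 391 and 254 CPM against 122 to 212 (median 164; log2 fold change 1.02, standard error 0.10, adjusted p = 6.73e-06, edgeR), and for both the replicate 2 libraries were the highest 3. IGFBP3 is a member of this list too. Of 10 targets of TGF-beta and BMP, 3 rose (among them HAMP by 0.57 and TGIF1 by 0.71) and the median was 0.34. TGIF1 was not called in 12 of 22 alternatives, library size only and DESeq2 among them. The YAP/TEAD count was 8 without sgKeap1-2 replicate 3, and 4 and 3 without sgKeap1-1 replicates 1 and 2. The TGF-beta and BMP count was 2 without sgKeap1-2 replicate 3 and 0 without sgKeap1-1 replicate 2, 5 without sgKeap1-2 replicate 1, and 1 without sgCtrl replicate 2, sgCtrl replicate 3, sgKeap1-1 replicate 1 or sgKeap1-2 replicate 2.

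The ATF4 and amino acid response rose at 9 of 32 members (28.1%, beside 3.99% of all features) and fell at none, with a median of 0.33. GDF15, a stress hormone, had 1149, 1931 and 2026 CPM against 404 to 849 (median 713), well apart in each guide group (log2 fold change 1.30, standard error 0.11, adjusted p = 2.45e-06, edgeR). SLC38A2, a neutral amino acid transporter, MTHFD2, of mitochondrial folate metabolism, and DDIT3, the factor CHOP, rose by 0.78, 0.69 and 1.02. Of 22 genes of the unfolded protein response 4 (18.2%) rose (HERPUD1, DNAJB9, PDIA4 and EDEM1, by 0.43 to 0.85), with a median of 0.15. The cytosolic ribosomal proteins rose at 16 of 76 (21.1%), by less, with a median of 0.21. RPL34 had the smallest p of them, with 949, 1090 and 971 CPM against 508 to 693 (median 679; log2 fold change 0.62, standard error 0.10, adjusted p = 0.00073, edgeR). Counts of ribosomal proteins can be split with their many near-identical pseudogenes. Within sgKeap1-2 the list's median difference from the group's other libraries was 0.08 in replicate 2 and 0.11 in replicate 3. Its mean log2 CPM there was 9.47 and 9.32, so for this guide the measures did not put replicate 2 clearly highest. The ATF4, unfolded protein and ribosomal protein counts were 15, 9 and 36 without sgKeap1-2 replicate 3, and 2, 0 and 1 without sgKeap1-1 replicate 2. The unfolded protein count was 1 and 2 without sgKeap1-1 replicates 1 and 3, and 7 and 0 without sgKeap1-2 replicates 1 and 2. The ribosomal protein count was 4 and 6 without sgCtrl replicates 2 and 3, 7 without sgKeap1-1 replicate 1, and 27 and 6 without sgKeap1-2 replicates 1 and 2.

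Decreases in replicate 2 included many members of the lists of cell division. Of 37 genes of DNA replication and the G1/S step, 21 fell (56.8%, beside 2.81% of all features), none rose, and all 37 fold changes were below 0, with a median of -0.57. CHAF1A, which deposits histones behind the fork, had 53.8, 41.2 and 42.7 CPM in replicate 2 against 59.4 to 98.2 (median 75.1), without overlap (log2 fold change -0.76, standard error 0.12, adjusted p = 0.000939, edgeR). RRM1, the large subunit of ribonucleotide reductase, had 253, 166 and 168 CPM against 257 to 374 (median 323; log2 fold change -0.73, standard error 0.12, adjusted p = 0.00104, edgeR). The helicase subunit MCM3 had 294, 217 and 233 CPM against 312 to 437 (median 356), and its partner MCM4 had 203, 105 and 118 CPM against 190 to 252 (median 214). MCM3 fell by 0.55 and MCM4 by 0.67, and for MCM4 the sgCtrl replicate 2 level lay inside the range of the other libraries. The 12 largest decreases held further genes that are not members of the list and are given singly. POLA2, a subunit of the priming polymerase, had 6.12, 5.23 and 6.58 CPM against 8.41 to 15.7 (median 13.3; log2 fold change -1.10, standard error 0.24, adjusted p = 0.00957, edgeR). POLD3, of polymerase delta, and TFDP1, the partner that E2F factors need to bind DNA, fell by 0.90 and 0.92, and so did TICRR, which helps to fire origins, by 0.90. TFDP1 had 100.4, 103 and 84.6 CPM against 136 to 214 (median 181), apart in all groups. In bulk RNA, fewer dividing cells and less RNA of these genes per cell cannot be told apart.

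Mitotic genes fell at 16 of 35 members (45.7%, beside 2.81% of all features) and rose at none, with a median of -0.54 and 33 of the 35 fold changes below 0. AURKA, the kinase of spindle poles, had 286, 175 and 192 CPM against 303 to 446 (median 364; log2 fold change -0.78, standard error 0.14, adjusted p = 0.00475, edgeR), so the groups did not overlap. FOXM1, the factor that drives G2/M genes, had 45.6, 39.2 and 26.3 CPM against 49.3 to 83.4 (median 58.3; log2 fold change -0.76, standard error 0.14, adjusted p = 0.00302, edgeR). NUSAP1, of the spindle, and MYBL2, of the complex that turns on mitotic genes, fell by 0.70 and 0.75, but their sgCtrl replicate 2 level lay inside the range of the other libraries. Outside the list, ESCO2, which sets sister cohesion, and SPC24, of the kinetochore, fell by 0.96 and 0.90. The list medians were smaller in sgCtrl, at -0.24 for replication and -0.15 for mitosis, than in sgKeap1-1 (-0.82 and -0.75) and sgKeap1-2 (-0.62 and -0.64). No member of either list was called for a difference between guides, which with 1 replicate 2 library a guide does not show that they were equal. Among the sgCtrl libraries the mitotic median was below the others also in replicate 1, at -0.25, so there the numbers do not part. Without sgKeap1-2 replicate 3 the replication and mitosis counts were 23 and 21, and without sgKeap1-1 replicate 2 they were 1 and 1. Without sgKeap1-2 replicate 2 they were 7 and 1, and without sgKeap1-1 replicate 1 they were 13 and 8. Without sgCtrl replicate 3 the mitosis count was 6, without sgKeap1-1 replicate 3 it was 9, and without sgCtrl replicate 1 it was 27.

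Decreases outside the cycle included HPX (hemopexin), which binds free heme in plasma. HPX had 15.3, 19.0 and 24.6 CPM against 32.6 to 54.4 (median 49.1), with no overlap (log2 fold change -1.19, standard error 0.19, adjusted p = 0.00172, edgeR). DGAT1, which makes triglyceride, had 30.6, 30.3 and 38.8 CPM against 56.3 to 83.1 (median 67.2), and again the sets were apart (log2 fold change -1.02, standard error 0.14, adjusted p = 0.00016, edgeR). The sulfatase ARSI had 5.44, 6.75 and 6.10 CPM against 10.9 to 23.6 (median 14.4; log2 fold change -1.24, standard error 0.24, adjusted p = 0.00443, edgeR). KANK4, SCGN and PSMC3IP fell by 1.09, 1.02 and 0.88 with overlap between guides. Without sgKeap1-1 replicate 2, the genes HPX, DGAT1 and TFDP1 alone of the 12 largest decreases kept their call. Without sgCtrl replicate 2, ARSI, POLA2, SCGN, ESCO2 and TICRR lost it, and without sgKeap1-2 replicate 2, POLA2, TICRR, SPC24 and PSMC3IP did. TICRR lost it also without sgCtrl replicate 3 or sgKeap1-1 replicate 1. Of 15 acute phase proteins 3 rose (CP, HAMP and SOCS3) and HPX fell, beside 3.99% of all features higher and 2.81% lower. HAMP counts in the TGF-beta and BMP list as well. The increases stayed at 3 without sgKeap1-2 replicate 3 and were 1 without sgKeap1-1 replicate 2. SOCS3 was not called in 10 of its 20 alternatives, and HAMP in 5 of 22, sgCtrl or sgKeap1-1 replicate 2 left out among them. CP (ceruloplasmin), a copper carrier, had 249, 449 and 334 CPM against 110 to 205 (median 185), with no overlap (log2 fold change 1.04, standard error 0.09, adjusted p = 1.81e-06, edgeR).

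**Figure D2:**
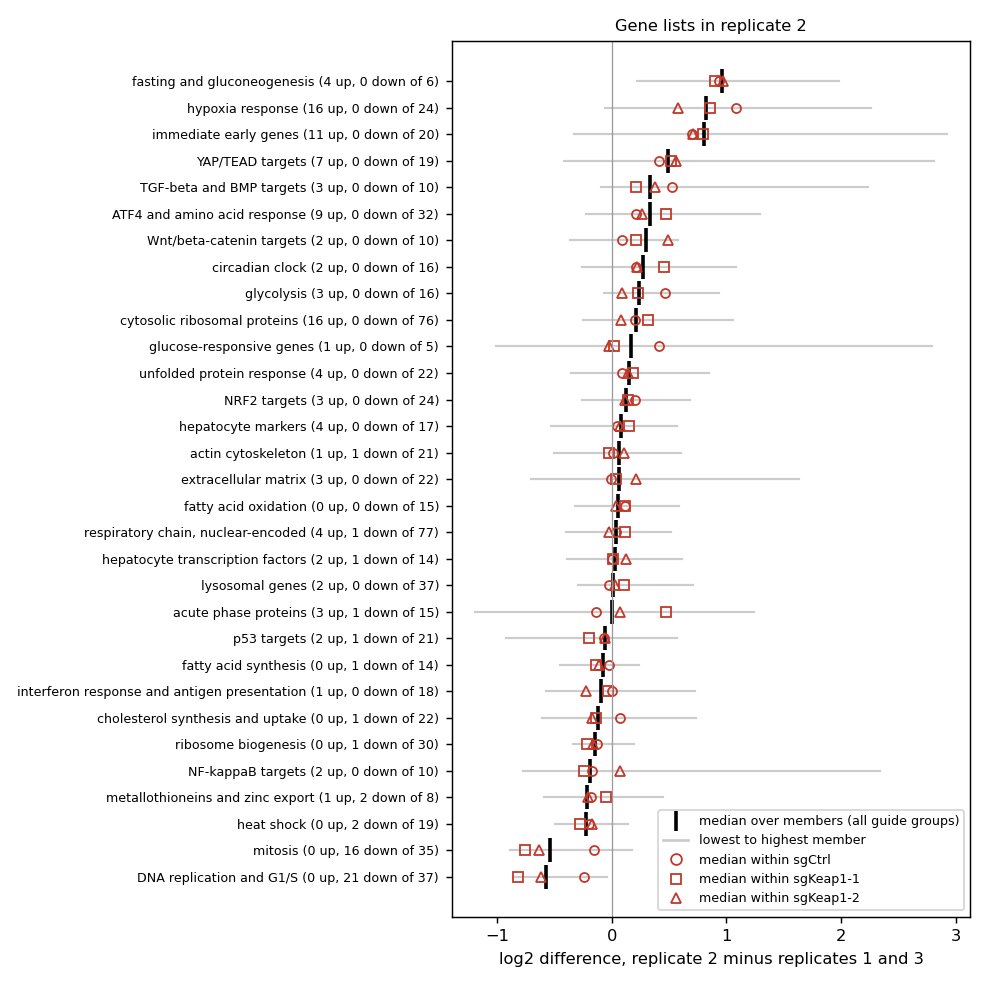
Log2 difference between replicate 2 and replicates 1 and 3 for the gene lists with 5 or more members tested. The black tick is the median over members, the grey line runs from the lowest to the highest member, open symbols are medians within each guide group, and the labels count the members that passed the test. Replication and mitosis lie lowest, at -0.57 and -0.54, and the fasting, hypoxia and immediate early lists highest, at 0.80 to 0.96.

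The programme that the study is about moved little between replicates, as the plot of the lists shows. Of 24 NRF2 targets, 3 (12.5%, beside 3.99% of all features) rose in replicate 2 (ABCC2 by 0.48, SLC7A11 by 0.68 and GCLC by 0.47), none fell, and the median was 0.12. SLC7A11 is a member of the ATF4 and amino acid list too and counts in both. Of 37 members of the lysosomal list, 2 (5.41%, near the share of all features) rose (CTSB by 0.54 and SQSTM1 by 0.39) and none fell. The median was 0.01, a value that turned below 0 under 3 alternatives, library size only among them. Within replicates 1, 2 and 3, the mean log2 CPM of the NRF2 list was higher than in sgCtrl by 1.38, 1.30 and 1.27 with sgKeap1-1 and by 1.68, 1.61 and 1.54 with sgKeap1-2. The lysosomal list was higher by 0.24, 0.38 and 0.25 with sgKeap1-1 and by 0.32, 0.37 and 0.26 with sgKeap1-2. The difference between guides thus exceeded that between replicates for the NRF2 list at every number. The NRF2 count in replicate 2 was 5 without sgCtrl replicate 1, 6 and 7 without sgKeap1-2 replicates 1 and 3, and 0 without sgKeap1-1 or sgKeap1-2 replicate 2. The lysosomal count was 0 without sgKeap1-1 replicate 2 and 1 without sgKeap1-2 replicate 2. Without sgKeap1-2 replicate 1 or 3, 5 members of the lysosomal list rose and 1 fell.

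Other lists held few calls. In some the share was near that of all features (3.99% higher, 2.81% lower), and in others it was above but rested on few genes. Nothing is read from either kind. Of 22 genes of cholesterol synthesis and uptake 1 fell (NSDHL, by 0.61), and of 14 of fatty acid synthesis 1 fell (FASN, by 0.38). Of 15 of fatty acid oxidation none was called by edgeR. Heat shock genes fell at 2 of 19 (10.5%), AHSA1 by 0.49 and HSP90AA1 by 0.35, with a median of -0.23. The metallothioneins and zinc export list of 8 split, with MT1G and MT1F (25.0%) lower by 0.43 each and MT2A (12.5%) higher by 0.44. Of 21 p53 targets 2 rose (CCNG1 and GADD45A) and 1 fell (FDXR), of 18 interferon genes 1 rose (IFITM2), and of 10 NF-kappaB targets 2 rose (CCL20 and ICAM1). Most members of the p53, interferon and NF-kappaB lists leaned lower, with fold changes below 0 at 14, 12 and 7 of them. The list medians were -0.06, -0.10 and -0.19. Of 77 nuclear-encoded respiratory chain genes 4 (5.19%) rose (COX7A2L, NDUFC1, NDUFS4 and ATP5MK) and 1 (1.30%) fell (ATP5MC1). Of 14 hepatocyte transcription factors, FOXA1 and ONECUT2 (14.3%) rose by 0.61 and 0.48 and CEBPA (7.14%) fell by 0.39. Of 21 actin genes ACTG1 rose and ACTA2 fell, and of 30 ribosome biogenesis genes NOP56 fell. Of 4 nuclear-retained RNAs NEAT1 rose and OIP5-AS1 fell, and of 2 AhR targets none was called by edgeR. The circadian clock list had 2 increases of 16 (RORA by 1.08, HLF by 0.33), the Wnt list 2 of 10 (LGR5, GLUL), and the matrix list 3 of 22 (FN1, NID1, LOX). Of 17 hepatocyte markers 4 (23.5%) rose (AFP, ALB, APOA2 and AHSG, by 0.35 to 0.57) and none fell. Without sgKeap1-1 replicate 2 none of these lists held a call. Without sgKeap1-2 replicate 1, the respiratory chain list held 11 increases and 3 decreases, the heat shock list 6 decreases and the ribosome biogenesis list 5. Without sgKeap1-2 replicate 3 no count of these lists moved by more than 2. Their counts, small as they are, moved without other libraries too. AHSA1, FASN, FOXA1, GADD45A, GLUL, HLF, IFITM2, LGR5, NDUFC1, NDUFS4 and NOP56 were each not called in 10 to 13 of 22 alternatives.

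**Figure D3:**
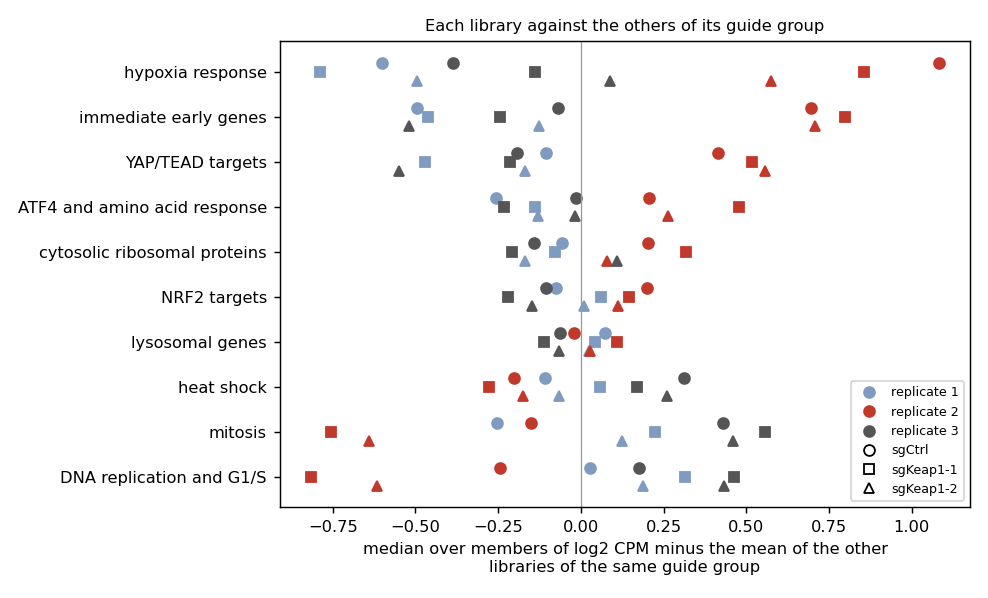
Median over the members of a list of log2 CPM in 1 library minus the mean of the other libraries of its guide group, for 10 lists. Colour marks the replicate number and shape the guide group. Replicate 2 lies to the right of the others of its group for the 4 upper lists and to the left for DNA replication, whereas for mitosis sgCtrl replicates 1 and 2 lie side by side at -0.25 and -0.15.

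Promoters of some of these genes hold letters known to be bound by hypoxia-inducible factors, by CREB and ATF factors, by TEAD or by E2F. One with a match is shown for each of the hypoxia, immediate early, YAP/TEAD and replication lists, and others of the named genes have none. The RefSeq table of GRCh38.p14 gives the 250 bases before the start of 35116 genes, and each is printed 5′ to 3′ on the strand of the gene. Capitals mark, on either strand, only the letters of the list for which a gene is shown (hypoxia core, cAMP element, TEAD and E2F), and other searched letters in it stay in lower case. CA9 lies on the + strand at chr9:35673678-35673927, DUSP1 on the - strand at chr5:172771196-172771445, CCN2 on the - strand at chr6:131951373-131951622 and MCM3 on the - strand at chr6:52284743-52284992.
CA9: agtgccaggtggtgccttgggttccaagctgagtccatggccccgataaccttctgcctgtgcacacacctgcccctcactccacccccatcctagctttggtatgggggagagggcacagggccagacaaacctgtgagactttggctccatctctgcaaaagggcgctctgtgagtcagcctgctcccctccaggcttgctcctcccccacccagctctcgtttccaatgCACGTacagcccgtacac
DUSP1: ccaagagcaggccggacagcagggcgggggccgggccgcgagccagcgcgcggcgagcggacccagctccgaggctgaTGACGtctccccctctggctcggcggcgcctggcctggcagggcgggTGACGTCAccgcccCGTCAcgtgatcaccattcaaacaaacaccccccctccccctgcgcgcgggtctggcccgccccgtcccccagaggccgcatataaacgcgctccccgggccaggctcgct
CCN2: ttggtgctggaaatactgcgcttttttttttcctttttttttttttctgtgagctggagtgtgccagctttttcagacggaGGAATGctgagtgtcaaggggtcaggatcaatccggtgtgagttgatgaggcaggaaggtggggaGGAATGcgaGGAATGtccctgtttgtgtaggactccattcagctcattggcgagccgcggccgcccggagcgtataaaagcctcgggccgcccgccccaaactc
MCM3: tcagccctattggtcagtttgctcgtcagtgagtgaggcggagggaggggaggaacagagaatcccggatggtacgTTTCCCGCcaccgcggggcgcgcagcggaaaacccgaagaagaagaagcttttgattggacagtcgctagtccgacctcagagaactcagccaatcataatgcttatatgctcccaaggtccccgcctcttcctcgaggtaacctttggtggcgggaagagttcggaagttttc

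Letters were searched on both strands, and ACGTG and TGACG overlap where TGACGTG occurs. The hypoxia response element core ACGTG stood in 9 of 19 hypoxia promoters in the table (47.4%), against 18.5% of all promoters and 23.8% of those of the tested features. It stood also in 34.5% of mitotic and 35.7% of YAP/TEAD promoters, and in CA9 it begins 18 bases before the start, read on the other strand. The full cAMP response element TGACGTCA was in 2 of 15 immediate early promoters (13.3%, against 1.65% of all and 3.04% of tested), DUSP1 among them, and as often in the mitotic list, which moved the other way, at 4 of 29 (13.8%). Its first 5 letters TGACG, which the full element contains, were in 10 of 15 (66.7%, against 21.2% and 30.7%). The TEAD letters GGAATG were in 4 of 14 YAP/TEAD promoters (28.6%, against 11.9% and 9.19%), with 3 copies in CCN2 and 2 in ANKRD1. E2F letters (TTTNGCGC or TTTCCCGC) were in 13 of 33 replication promoters (39.4%, against 2.86% and 4.78%), but not in those of RRM1 and CHAF1A. The CHR letters TTTGAA were in 17 of 29 mitotic promoters (58.6%, against 13.3% and 8.48%), but not in that of NUSAP1. These shares count letters in lists that were drawn up from known biology, and say nothing of binding in these cells. In TNS1 none of these letters was found in the window.

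A single library could differ from its group as much as replicate 2 did. Each library was set against the other 2 of its guide group, as a description without a test, over 8646 features whose mean was at least 10 CPM. Features over 1 log2 unit away numbered 140, 168 and 128 in the replicate 2 libraries of sgCtrl, sgKeap1-1 and sgKeap1-2, and 27 to 64 in 5 of the other 6. In the replicate 2 libraries the higher ones were in the majority, at 117, 95 and 97. The last of these is set against a mean that includes sgKeap1-2 replicate 3, and against sgKeap1-2 replicate 1 alone 46 were higher and 21 lower. In sgKeap1-2 replicate 3 the features over 1 unit away numbered 345 (3.99%), of which 322 were lower and 23 higher. Among features of at least 30 CPM on average its number was 164.

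**Figure D4:**
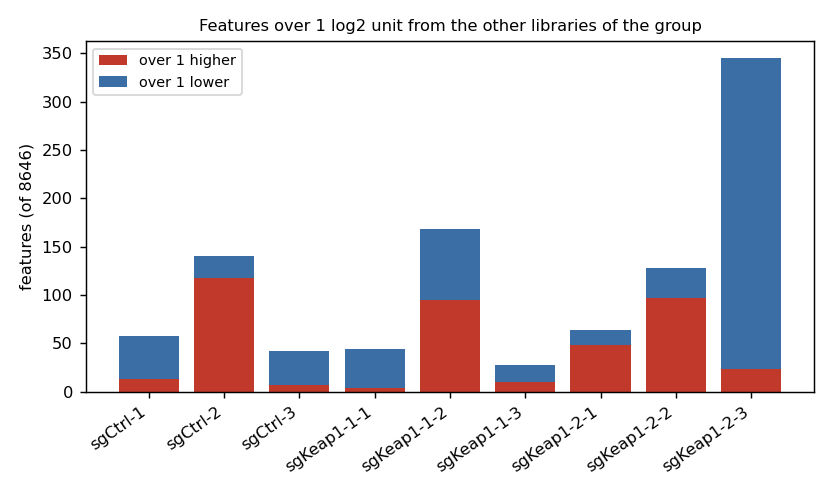
Number of features, of 8646 averaging at least 10 CPM, whose log2 CPM in 1 library is over 1 unit above (red) or below (blue) the mean of the other libraries of its guide group. The bar of sgKeap1-2 replicate 3 reaches 345, of which 322 lower, and those of replicate 2 reach 128 to 168.

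Most of the 322 features low in sgKeap1-2 replicate 3 were protein-coding, at 291 of 8373 such genes (3.48%). Pseudogenes had the larger share: of 137 at this level, 29 (21.2%) were over 1 unit lower there, against 0 or 1 in each other library. Those farthest below their group were named after ribosomal protein genes. RPL10AP9 had 0.485 CPM there and 19.1 and 14.6 in sgKeap1-2 replicates 1 and 2, while RPL10A, the coding gene, had 1243, 1073 and 1025. RPL27P4 had 2.42 CPM against 34.8 and 31.0, while RPL27 had 1491 against 1586 and 1770. RPL34P5 had 2.91 CPM against 31.4 and 38.0, and there the coding gene RPL34 was lower too, at 508 against 683 and 971. Summed over the 137, pseudogenes had 12556 CPM there, close to 13054 and 13152 in its group. Among the low coding genes, CD9, a tetraspanin of the cell surface, had 1.70 CPM against 20.6 and 25.6, and CCL20 had 14.3 against 62.5 and 280.

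In sgKeap1-2 replicate 3, 2 of 24 NRF2 targets and 3 of 37 members of the lysosomal list were over 1 unit lower. Both shares exceed that of all features (322 of 8646) but rest on few genes, so nothing is read from them. The list medians were -0.15 and -0.07, and the genes named were looked at after their values were seen. Larger shares were lower among Wnt targets (3 of 10, median -0.62), immediate early genes (4 of 15, -0.47) and the unfolded protein response (4 of 22, -0.15). These too were set against a mean that holds replicate 2. Summed over the Wnt list, CPM was 1169 there, against 2067 and 2330 in sgKeap1-2 replicates 1 and 2. TXN (thioredoxin, an NRF2 target) had 198 CPM in sgKeap1-2 replicate 3 against 743 and 820 in its group, below the 238, 393 and 262 of sgCtrl. NQO1, another target, had 1545 against 1900 and 1769. CTSL (cathepsin L) had 20.8 CPM against 69.6 and 90.0, below the 46.3 to 53.1 of sgCtrl. Among ribosomal proteins RPS25 had 60.6 CPM against 246 and 227, and RPL3 had 13.1 against 43.1 and 53.4, while the median over 73 members was 0.12 higher. Among the features that exceeded their group most were ANGPTL8, ANGPTL4, EPO and ACTA1, with ANGPTL8 higher by 1.56 and ANGPTL4 by 1.53. EPO (erythropoietin) had 18.2 CPM against 4.31 and 8.54. Of the 322 low features, 52 (16.1%) were among the increases of replicate 2, beside 4.74% of the 8646, and 51 of the 52 were also called without this library. The mean they were set against holds replicate 2, which favours features high there, so nothing is read from that share. What set the library apart was not tested.

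The effect of replicate 2 was compared between guides by an interaction term. It was called at 1 of 11064 features (0.00904%), TXNIP, an inhibitor of thioredoxin that glucose induces (193 features had an unadjusted p under 0.05). TXNIP had 131, 154 and 102 CPM in sgCtrl replicates 1 to 3, 119, 15.3 and 108 in sgKeap1-1, and 99.1, 32.9 and 76.6 in sgKeap1-2. Replicate 2 was thus highest in sgCtrl and lowest with both KEAP1 guides (adjusted p = 0.00299, edgeR). Each of these arms rests on 1 library of replicate 2, so the spread in this test comes from replicates 1 and 3 alone. The call was lost without sgKeap1-1 replicate 1 or 3 (adjusted p = 0.131 and 0.0724, edgeR, no feature called, 166 and 124 with an unadjusted p under 0.05). Without sgKeap1-2 replicate 3 it was kept and 3 features were called, and without sgKeap1-2 replicate 1 it was kept and 167 were.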

How the data were processed

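RNA of 9 HepG2 libraries was read with the QuantSeq 3' mRNA kit. The authors deposited whole-number read counts per gene, and the submitters' processing notes name cutadapt 1.16, STAR 2.7.5b and featureCounts 1.6.3. Those notes name hg38 where the study's methods name GRCh37, and the annotation, strand setting and filter are not given in the sources used here, so reads of overlapping or antisense genes may not be told apart. The notes also name FastQC 0.72 and limma 3.40.6. The table held 12798 features. The 1052 without a gene number (1.34% of counts) were left out of library sizes and tests, 11740 matched a RefSeq symbol by number, 3 numbers stand on 2 features each, and 0 sample columns were unmapped.

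Counts were filtered with filterByExpr, scaled by TMM and tested with edgeR 4.0.16 (R 4.3.3, quasi-likelihood, robust) with the guide group and replicate 2 as terms, at a Benjamini-Hochberg adjusted p under 0.05. Standard errors were taken from the log2 fold change and its F statistic. Printed CPM are TMM-normalized, and log2 CPM have a prior count of 2. The sources used here give limma and no design for the human libraries, so limma 3.58.1 (voom) and DESeq2 1.42.0 were alternatives, with other scalings, filters and blocks and each library left out in turn. The named genes are KEAP1, the 12 largest increases and decreases among called features with a symbol, a mean of at least 10 CPM and the replicate 2 library highest or lowest in each of the 3 guide groups, up to 4 members of each list with the smallest p, and, for each library, the 5 features farthest from its group in each direction. LYZ, PDGFRB, TXN, NQO1, CTSL, RPL10A, RPL27, RPS25, RPL3, ATP5MK and markers of other cell types are named outside this rule, after their values were seen. Members and lists were chosen with earlier results of these data known, and a list is described by counts and its median, without a test. The mitochondrially encoded respiratory chain list had no feature. A few genes that the rule or the marker lists name are not reported here.

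Libraries of a group differed far beyond counting noise (chi-square over its degrees of freedom 4.63 to 24.1). That measure covers counting error only, which separate libraries can exceed, so it is given as a description. On simulated counts of 10966 genes for the comparison of replicate 2 with replicates 1 and 3, the test recovered 23 of 66 genes changed 1.5-fold, 52 of 67 changed 2-fold and 63 of 66 changed 3-fold, with 8 false among 146 calls. At this depth a miss therefore does not show that a gene was unchanged.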

Additional observations from a re-analysis of the deposited data

Results flagged for a closer look

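TXNIP was the only feature whose difference between replicate 2 and the other replicates was called as unequal between guides (adjusted p = 0.00299, edgeR's quasi-likelihood test of the interaction with Benjamini-Hochberg adjustment). The adjusted p was 0.0319 with limma-voom and 0.00384 with DESeq2's size factors, and ran from 1.18e-11 to 0.131 with 1 library of replicates 1 and 3 left out, past 0.05 without sgKeap1-1 replicate 1 or 3. Replicate 2 minus the mean of replicates 1 and 3 was 0.41 log2 CPM in sgCtrl, -2.85 in sgKeap1-1 and -1.39 in sgKeap1-2. Each guide has 1 library of replicate 2, so the spread in this test comes from replicates 1 and 3 alone, and 0 to 167 features were called with 1 of those libraries left out. The level in sgKeap1-1 replicate 2 was 15.3 CPM, the lowest of the 9 libraries.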

How the results depend on the processing

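The replicate numbers were checked for pairing. Same-numbered libraries deviated together for replicate 2 (0.34 to 0.52) and replicate 3 (0.16 to 0.21), but for replicate 1 the correlations ran from -0.01 to 0.23, so the numbers were not taken to pair the samples. Libraries of different numbers correlated at -0.40 to 0.27 (mean -0.12), and the highest of these values exceeded that of each replicate 3 pair. With the replicate block of 3 levels, 926 features were called, 537 higher and 389 lower, and 748 of them were among the 753. CCL20 was not called with it. Without the guide block 68 were called, without the whole sgCtrl group 258, without sgKeap1-1 35 and without sgKeap1-2 894. A log2 fold change of at least 1 left 90. Leaving out 1 library gave 68 to 1494 calls, and for replicate 2 against replicate 1 58 to 825, against replicate 3 151 to 1264, and for replicate 3 against replicate 1 0 to 1, the 1 being without sgKeap1-2 replicate 3. Library size only gave 796, limma-voom 777, DESeq2 713 (with 2145 adjusted p not given), no filter 772 and at least 10 counts in each library 762. Keeping the features without a gene number gave 745; this alternative, and the list counts, principal components and interaction with a library left out, were chosen after seeing the data. The interaction was called at 0 to 167 features when 1 library of replicates 1 and 3 was left out. The number of features far from their group in sgKeap1-2 replicate 3 was 164 at a mean of at least 30 CPM and 300 to 372 under the other settings. The cause of these changes was not tested. Of 99 named genes, 11 kept their side of the threshold under each alternative that could test them (TNS1, DUSP1, IGFBP1, DGAT1, TFDP1, GDF15, BNIP3L, VEGFA, FOS and CCN2 as called, KEAP1 as not called), and none reversed. Depth and 3 libraries of replicate 2 limit what single genes can show.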

Other observations

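When features without a gene number were kept in the test, 745 of 11788 features were called. Of those without a number, 702 passed the filter and 18 (2.56%) were called between replicate 2 and replicates 1 and 3.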
